A study of Homo sapiens with 4 samples.

Results

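The collagens and lysyl oxidases of a human glioma cell line were examined after overexpression of a microRNA. The members were the genes whose platform symbol is COL, a number, A and a number, or LOX with or without L1 to L4, measured by probe sets that carry a single gene symbol. They came to 48 of the 18132 genes tested, 43 collagen chains and 5 lysyl oxidases. Each gene was read from its brightest probe set, the one with the highest mean over the 4 arrays. The line was U87MG, an established glioma line. The miR-490 cells had been transfected with the overexpression plasmid PC-490, and the control cells with the vector PCDNA. Cells of both groups therefore carried a plasmid, and RNA was taken 48 h after transfection. For each group 2 PrimeView 3' expression arrays were hybridised, with labelled RNA made out of 100 ng per array. The labels give no animal, donor or separate culture behind a replicate, so the p-values here measure the spread between arrays, which may be technical.

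Collagens are secreted proteins built from chains that wind into a triple helix. Fibrillar types form the cables of connective tissue, type IV forms the sheets of basement membranes, and type VI forms beaded filaments between them. Lysyl oxidases convert lysines of collagen and elastin to aldehydes, from which the cross-links of the matrix arise. Normal brain tissue holds little fibrillar collagen outside its vessels and meninges, and collagen deposits have been described in high-grade glioma.

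The agent was a microRNA with a mature RNA from each side of its hairpin, and the labels do not say which of them the plasmid was meant to supply. Both are shown, from RefSeq on GRCh38.p14, because the bases that pair with targets differ between them. The seed, bases 2 to 8 counted from the 5′ end, is in capitals.
hsa-miR-490-5p, chr7:136903205-136903224, plus strand: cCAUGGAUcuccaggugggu
hsa-miR-490-3p, chr7:136903242-136903263, plus strand: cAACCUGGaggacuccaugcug
The seeds of the arms are different sequences. The level of mature miR-490 was not analysed here, so the arrays hold no check of the overexpression.

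Values are log2 expression as the authors deposited them, and a difference of 1 is a doubling. The array medians over all probe sets lay between 5.15 and 5.17, with a mean of 5.16, and pairs of arrays correlated across genes at 0.998. A gene is called above the median when its mean over the 4 arrays exceeded 5.16. The array median is a reference point for brightness and not a detection limit, and levels of different genes are not ranked, since probes differ in how strongly they bind. The label of the line as glioma was set against marker genes. Of 11 astroglial markers 5 lay above the median, VIM at 13.92 and GFAP at 5.71 among them, whereas S100B at 3.38, AQP4 at 2.72, OLIG2 at 3.68 and SOX2 at 4.87 did not. Of 11 fibroblast and stromal markers 9 lay above it, against 2 of 8 endothelial, 2 of 7 leukocyte, 1 of 8 epithelial and 3 of 8 neuronal markers. In bulk RNA, fewer cells of a type and less RNA per cell cannot be told apart.

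Part of the collagen family gave bright signals in U87MG cells. Above the median were 24 of the 48 members, against 56.3% of all genes tested, and each of the 24 was above it on all 4 arrays. At 4 log2 units or more above the median were 12 members, against 12.5% of all genes. These were both chains of type I collagen (COL1A1, COL1A2), COL5A1 and COL5A2 of type V, COL6A1, COL6A2 and COL6A3 of type VI, COL7A1, COL8A1, and the enzymes LOX, LOXL1 and LOXL2. Among chains known from cartilage, COL2A1 at 2.43, COL9A1 at 4.23, COL9A2 at 4.94, COL9A3 at 2.42, COL10A1 at 2.72, COL11A1 at 3.66 and COL11A2 at 4.79 were below the median, and COL27A1 at 7.32 was above it. The members nearest the median on its upper side were COL18A1 at 5.42, COL21A1 at 6.06 and COL5A3 at 6.08, and on its lower side COL3A1 at 5.11, COL9A2 at 4.94 and COL11A2 at 4.79. The type III chain COL3A1, which joins type I in many tissues, was thus near the median in the set used. None of its 5 probe sets had a mean above it, and the other sets were dimmer, at levels between 2.25 and 3.93.

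**Figure D1:**
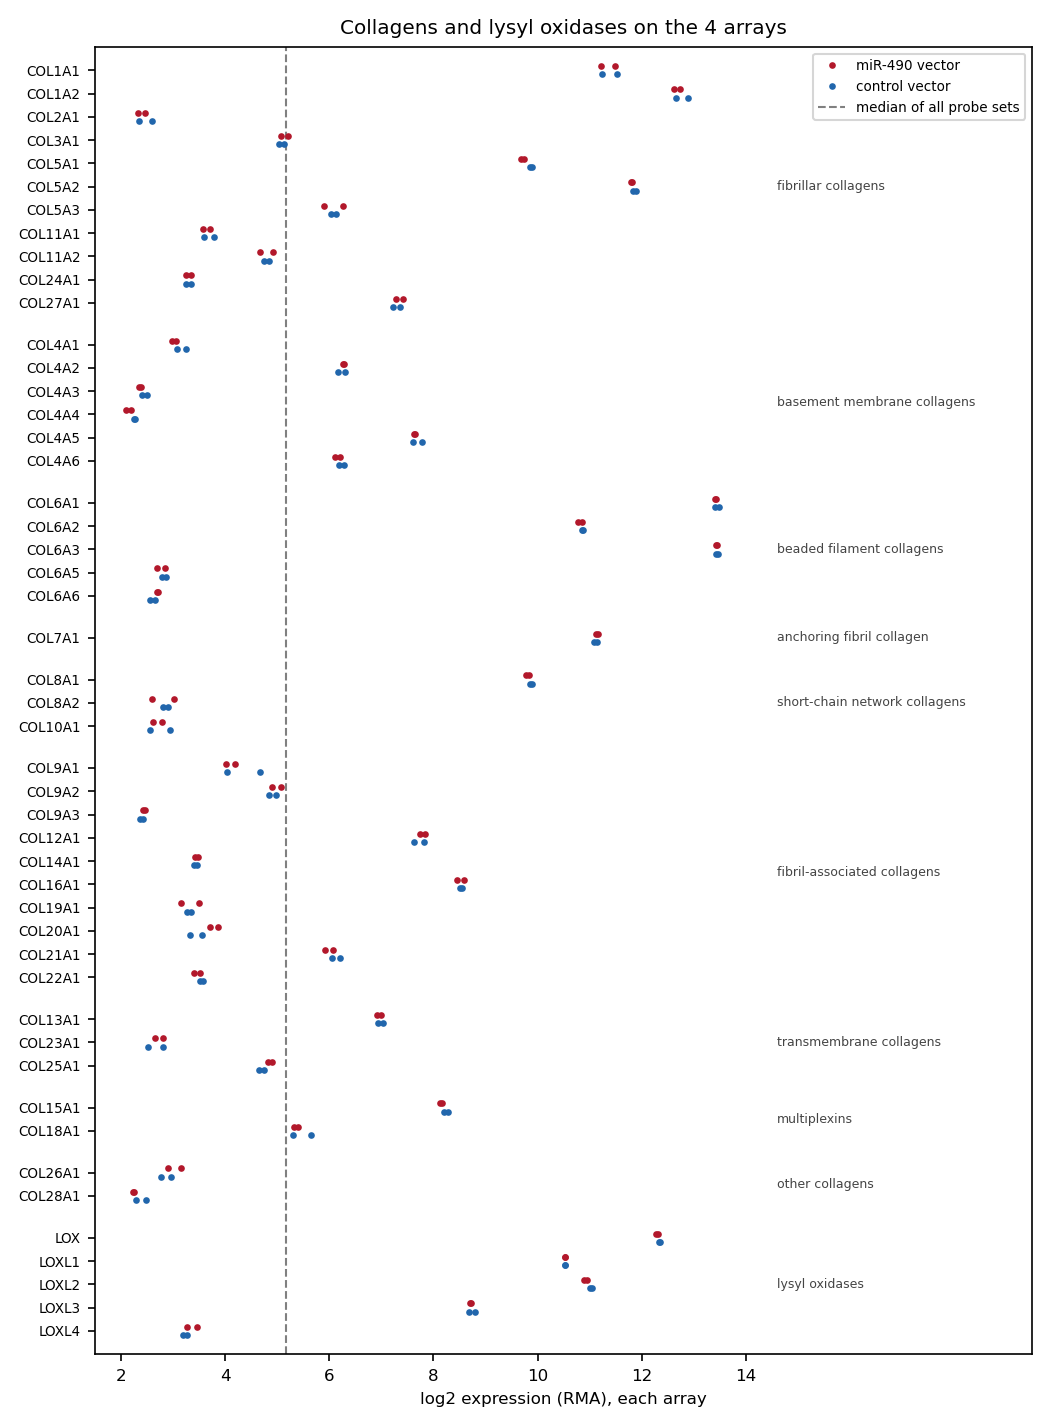
Log2 expression (horizontal axis) of each of the 48 genes on each array, grouped by class of protein, with miR-490 arrays as upper points and control arrays as lower points, and the median of all probe sets as a dashed line. COL6A1, COL6A3, COL1A2 and LOX lie far to the right of the line in all 4 arrays, COL4A1 lies left of it while COL4A2 lies right of it, and the points of the groups lie close together for most genes.

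The comparison of miR-490 with control vector asked which of these genes differ when the microRNA is overexpressed. No collagen or lysyl oxidase passed the test. With limma on all genes and Benjamini-Hochberg adjustment, 0 of 48 members reached an adjusted p under 0.05, the smallest being 0.786. The background was the same, with 0.0% of the 18132 genes called. At an unadjusted p under 0.05, which 6.18% of all genes reached, limma listed 2 members. COL5A1 was the 1 listed as lower, against a background of 2.88% of genes, and COL20A1 the 1 listed as higher, against 3.3%. The differences were small, from a log2 fold change of -0.245 for COL9A1 to 0.345 for COL20A1, and both of these genes are dim.

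The spread between these arrays gives an interval for the change of each gene. Like the p-values, the intervals may cover technical spread only, and not differences between cultures or transfections. The 95% interval of the log2 fold change lay within 0.5 of 0 for 46 of 48 members, against 91.5% of all genes, and for all 24 members above the median. The 2 members with wider intervals were COL20A1 and COL9A1. The median standard error was 0.074 over the members and 0.0725 over all genes. For a single gene, an exact two-sided permutation test of 2 arrays against 2 cannot give a p below 0.333.

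By direction, 28 of 48 members had the lower mean in miR-490 cells (58.3%), against 47.3% of all genes, and 20 had the higher. The median log2 fold change was -0.0325 over the members and 0.005 over all genes. With each array centred on its own median the split was 33 lower and 15 higher, and 52.1% of all genes were lower. The split also turned on single arrays. Without miR-490 replicate 1, 13 members were higher, and without control replicate 2 the lower and higher members numbered 23 each and the median was 0.0. The arrays did not overlap between groups for 11 members with lower values in miR-490 cells, against a background of 16.1%, and for 4 with higher values, against 16.5%.

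Among the 24 members above the median, 17 were lower in miR-490 cells and 7 higher, where 49.0% of all genes above the median were lower. Their log2 fold changes ran between -0.155 and 0.08 with a median of -0.04. In 6 of the 24 the miR-490 arrays both lay below both control arrays, against a background of 18.4%, namely COL5A1, COL5A2, COL8A1, COL15A1, LOX and LOXL2. In 0 of the 24 did both miR-490 arrays lie above both control arrays, against a background of 15.7%. Of the 12 members 4 log2 units or more above the median 10 were lower, against 56.4% of all genes at that level. The count of 17 varied with the choice of probe set and with single arrays. It was 10 of 24 with the probe set of largest spread for each gene, which also gave 6 of the 12 in place of 10. For some members, such as COL4A6 and COL5A2, that set is below the median. The count was 12 without control replicate 2, and 20 with each array centred on its own median.

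**Figure D2:**
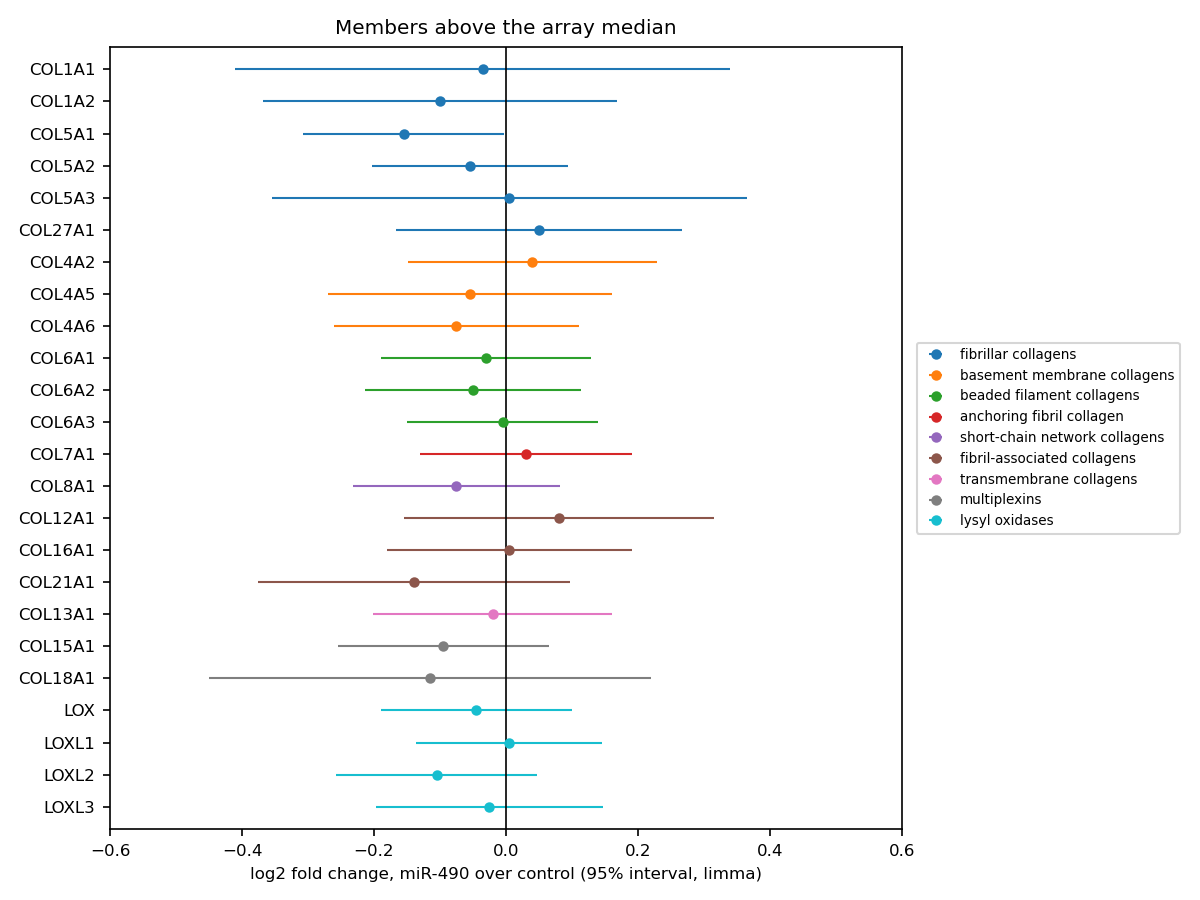
Log2 fold change of miR-490 over control (horizontal axis) with its 95% interval from limma for the 24 members above the array median, coloured by class of protein. The points lie between -0.155 and 0.08, and the interval of each gene other than COL5A1 includes 0.

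**Figure D3:**
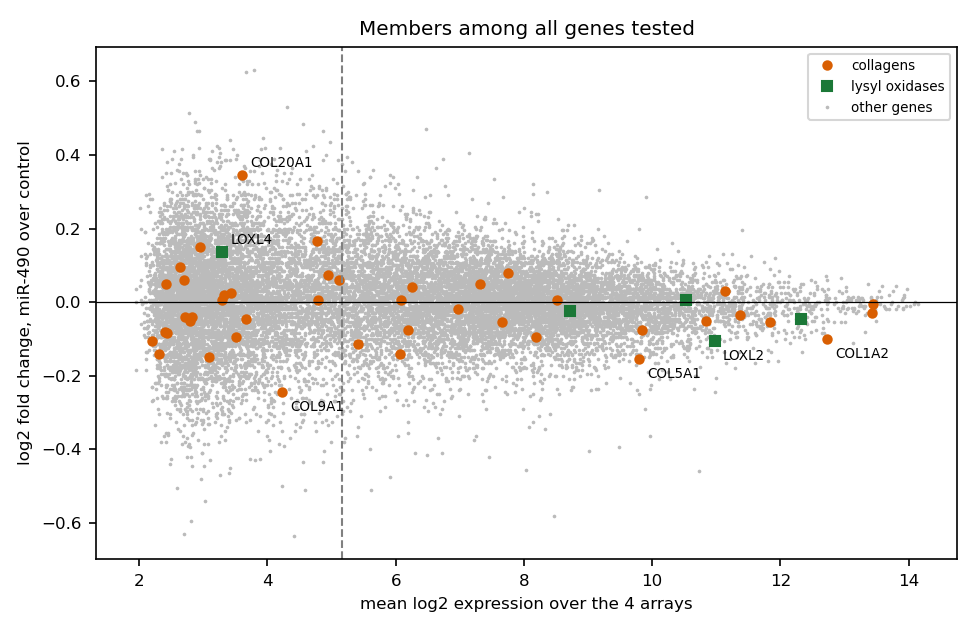
Log2 fold change of miR-490 over control (vertical axis) against the mean level of each gene over the 4 arrays (horizontal axis), with the 18132 genes tested in grey and the 48 members in colour. The members lie within the cloud of all genes at each level, and COL20A1 and COL9A1, which depart farthest from 0 among them, lie below the array median.

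Type I collagen, the main fibril former of skin, bone and tendon, is assembled from COL1A1 and COL1A2 chains. COL1A1 gave 11.48 and 11.21 in the miR-490 arrays, against 11.24 and 11.52 in the control arrays. COL1A2 gave 12.73 and 12.62 in the miR-490 arrays, against 12.66 and 12.89 in the control arrays. For both chains the groups overlapped. The log2 fold change was -0.035 for COL1A1 (95% interval -0.41 to 0.34; limma adjusted p = 0.990) and -0.10 for COL1A2 (95% interval -0.37 to 0.17; limma adjusted p = 0.906).

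In the probe sets used, the replicates of type I collagen were far apart for genes so bright. The SD within groups, pooled over both, was 0.194 for COL1A1 and 0.127 for COL1A2, and the median over the 2261 genes 4 log2 units or more above the median was 0.0391. As large an SD as that of COL1A1 was seen in 0.442% of those genes, and as large a one as that of COL1A2 in 2.3%. The other probe sets of COL1A1 above the median had SDs of 0.128, 0.159 and 0.124, all smaller than that of the set used. The other probe sets of COL1A2 had SDs of 0.117, 0.046, 0.047, 0.040 and 0.121, so the wide spread was not in all of them. In the sets used for LOX and LOXL1 the SD was 0.018 and 0.005. All 4 probe sets of COL1A1 above the median put miR-490 replicate 2 and control replicate 1 below the other 2 arrays, as did 2 of the 6 probe sets of COL1A2. This order was picked out after the values were seen, and 468 of the 2261 genes at that level share it.

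Type V chains join type I in mixed fibrils and limit their width. In the sets used, COL5A1 and COL5A2 had tighter replicates than type I, with pooled SDs within groups of 0.032 and 0.027. The set of COL5A3 had 0.186, and the other sets of COL5A1 had 0.108, 0.058 and 0.112. COL5A1 gave 9.69 and 9.74 in the miR-490 arrays, against 9.85 and 9.89 in the control arrays. Both miR-490 arrays were below both control arrays, and the means were 9.715 ± 0.035 and 9.87 ± 0.028 (SD, n = 2 each). The log2 fold change was -0.155 (95% interval -0.31 to -0.0031), a ratio of 0.898, with an unadjusted limma p of 0.0471 and an adjusted p of 0.786. All 4 probe sets of COL5A1 gave non-overlapping groups with the lower values in miR-490 cells, at log2 fold changes between -0.17 and -0.09. Those sets measure the same RNA on the same arrays and are no independent evidence. Fitted among all single-gene probe sets, the set used had an unadjusted limma p of 0.0700. COL5A2 gave 11.82 and 11.80 in the miR-490 arrays, against 11.84 and 11.89 in the control arrays, again without overlap, and its log2 fold change was -0.055 (95% interval -0.20 to 0.09; limma adjusted p = 0.906). Of the 6 probe sets of COL5A2 3 were above the median, at log2 fold changes between -0.10 and -0.055, and the groups of the set at level 9.64 overlapped. Its sets below the median gave 0.185, 0.16 and -0.26. The third type V chain, COL5A3, was near the median with overlapping groups.

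Of the 11 fibrillar chains 6 lay above the median, and 6 were lower and 5 higher in miR-490 cells. Their median log2 fold change was -0.035. COL27A1, a fibrillar chain known from cartilage, gave 7.41 and 7.28 in the miR-490 arrays, against 7.23 and 7.36 in the control arrays, which overlap. COL2A1, COL3A1, COL11A1, COL11A2 and COL24A1 were not above the median.

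Type IV collagen, the network of basement membranes, was unevenly measured. Its most widespread form combines COL4A1 and COL4A2, whose genes lie head to head. COL4A1 gave 2.98 and 3.05 in the miR-490 arrays, against 3.25 and 3.08 in the control arrays, and all 3 of its probe sets were below the median. COL4A2 gave 6.26 and 6.28 in the miR-490 arrays, against 6.16 and 6.30 in the control arrays, and 1 of its 3 probe sets was above the median. In the sets used, the partners thus lay on opposite sides of the median, in probes whose binding was not calibrated against each other. The name of the COL4A2 set used ends in _s_at, the platform's mark for probes that can match further transcripts. The miR-490 arrays of the COL4A1 set used lay below its control arrays, at a log2 difference of -0.15 (95% interval -0.37 to 0.066; limma adjusted p = 0.816), and those of COL4A2 overlapped, at 0.04 (95% interval -0.15 to 0.23; limma adjusted p = 0.961). The other 2 sets of COL4A1, at levels of 3.01 and 2.58, gave overlapping groups at -0.015 each. The other 2 sets of COL4A2, at levels of 5.16 and 4.435, gave -0.18 and 0.14.

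The stretch between the starts of these neighbours is shown because a single short segment separates genes whose signals, in the sets used, lay on opposite sides of the median. That contrast rests on a single probe set of COL4A2, since its other sets were not above the median. It is given on the plus strand of chromosome 13, with COL4A1 running leftward and COL4A2 rightward from it, and the letters CCAAT and GGGCGG are in capitals.
COL4A1-COL4A2, RefSeq GRCh38.p14, chr13:110307158-110307283: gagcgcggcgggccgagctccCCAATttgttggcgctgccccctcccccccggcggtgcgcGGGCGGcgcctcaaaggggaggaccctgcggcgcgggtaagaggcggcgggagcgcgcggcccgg
Its 126 bases hold CCAAT 1 time, GGGCGG 1 time and TATAAA 0 times, counting both strands. The same arrangement is found for COL4A5 and COL4A6, whose starts are 379 bases apart, and for COL4A3 and COL4A4, at 418 bases.

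COL4A5 and COL4A6, which build the type IV network of smooth muscle and some epithelial basement membranes, were both above the median. COL4A6 gave 6.20 and 6.11 in the miR-490 arrays, against 6.28 and 6.18 in the control arrays, which overlap (log2 fold change -0.075; limma adjusted p = 0.896). COL4A5 gave 7.62 and 7.65 in the miR-490 arrays, against 7.60 and 7.78 in the control arrays, and its groups overlapped too. COL4A3 and COL4A4, chains of the kidney glomerulus, were dim at 2.40 and 2.20. Over the 6 type IV chains 5 were lower and 1 higher in miR-490 cells, with a median log2 fold change of -0.0775, and 3 of the 5 were dim chains.

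The beaded filaments of type VI collagen are assembled from COL6A1, COL6A2 and a longer chain, most often COL6A3. COL6A1 gave 13.40 and 13.42 in the miR-490 arrays, against 13.48 and 13.40 in the control arrays. COL6A2 gave 10.77 and 10.86 in the miR-490 arrays, against 10.85 and 10.88 in the control arrays. COL6A3 gave 13.45 and 13.43 in the miR-490 arrays, against 13.43 and 13.46 in the control arrays. All 3 overlapped between groups, at log2 fold changes of -0.03, -0.05 and -0.005. Their 95% intervals, which measure the spread between arrays, reach at most 0.21 from 0 on the log2 scale. Their limma adjusted p-values were 0.967, 0.930 and 0.992. The alternative long chains COL6A5 and COL6A6 were dim, at 2.79 and 2.64.

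COL7A1, the chain of the anchoring fibrils that fasten epidermis to dermis, gave 11.12 and 11.17 in the miR-490 arrays, against 11.08 and 11.15 in the control arrays. COL8A1, a short-chain collagen of vessel walls and the corneal Descemet membrane, gave 9.83 and 9.77 in the miR-490 arrays, against 9.85 and 9.90 in the control arrays. The COL7A1 groups overlapped (log2 fold change 0.03; limma adjusted p = 0.968), and the COL8A1 groups did not (log2 fold change -0.075, 95% interval -0.23 to 0.082; limma adjusted p = 0.876). The other short-chain members, COL8A2 and COL10A1, were below the median.

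The fibril-associated collagens, which sit on the surface of fibrils, were the class with most members higher in miR-490 cells, 7 of 10. Over all genes 50.1% were higher, and the median log2 fold change of the class was 0.0225. Only 3 of the 10 were above the median, 2 of them higher and 1 lower. COL12A1, which binds type I fibrils, gave 7.84 and 7.75 in the miR-490 arrays, against 7.62 and 7.81 in the control arrays. COL16A1 gave 8.59 and 8.46 in the miR-490 arrays, against 8.50 and 8.54 in the control arrays. COL21A1 gave 6.06 and 5.92 in the miR-490 arrays, against 6.05 and 6.21 in the control arrays. All 3 overlapped, at log2 fold changes of 0.08, 0.005 and -0.14, and COL21A1 had a limma adjusted p of 0.834. COL20A1, chosen for its unadjusted p after its values were seen, gave 3.85 and 3.71 in the miR-490 arrays, against 3.32 and 3.55 in the control arrays. All 4 of those values are below the array median, and the gene has 1 probe set. Its log2 fold change was 0.345 (95% interval 0.066 to 0.62), with an unadjusted limma p of 0.0254 and an adjusted p of 0.786.

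The multiplexins, basement membrane proteoglycans whose ends can be released as fragments such as endostatin, were both above the median. COL15A1 gave 8.16 and 8.13 in the miR-490 arrays, against 8.20 and 8.28 in the control arrays, with no overlap (log2 fold change -0.095, 95% interval -0.26 to 0.065; limma adjusted p = 0.833). COL18A1, the source of endostatin, gave 5.40 and 5.32 in the miR-490 arrays, against 5.64 and 5.31 in the control arrays, which overlap. Of the 3 transmembrane collagens measured, COL13A1 was above the median at 6.97 with overlapping groups, and COL23A1 and COL25A1 were below it. COL26A1 and COL28A1 were dim, at 2.94 and 2.31.

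Of the 5 lysyl oxidases 4 were above the median. In the sets used, the median SD within groups over the 5 was 0.032, against 0.0894 over the 43 collagens, many of them dim. Among genes 4 log2 units or more above the median it was 0.018 for lysyl oxidases, 0.0412 for collagens and 0.0391 for all genes. The other sets of LOX had SDs between 0.005 and 0.296, and those of LOXL2 had 0.241, 0.345 and 0.277. LOX, the enzyme that gave the family its name, gave 12.31 and 12.28 in the miR-490 arrays, against 12.35 and 12.33 in the control arrays. LOXL1, best known for its part in elastic fibres, gave 10.53 and 10.53 in the miR-490 arrays, against 10.53 and 10.52 in the control arrays. LOXL2, which cross-links type IV collagen, gave 10.90 and 10.94 in the miR-490 arrays, against 11.05 and 11.00 in the control arrays. The LOX and LOXL2 groups did not overlap, with both miR-490 arrays the lower, while LOXL1 was the same to within 0.01 on every array. LOXL3 gave 8.70 and 8.72 in the miR-490 arrays, against 8.79 and 8.68 in the control arrays, which overlap. LOXL4 gave 3.46 and 3.26 in the miR-490 arrays, against 3.19 and 3.26 in the control arrays, all below the median.

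None of the 5 enzymes passed the test, and in limma 0 had an unadjusted p under 0.05. The log2 fold changes were -0.045 for LOX (95% interval -0.19 to 0.099), 0.005 for LOXL1 (95% interval -0.14 to 0.15), -0.105 for LOXL2 (95% interval -0.26 to 0.047), -0.025 for LOXL3 and 0.135 for LOXL4. Their limma adjusted p-values ran between 0.816 and 0.992. The 6 probe sets of LOX were all above the median and gave log2 fold changes between -0.085 and 0.045. The other 3 probe sets of LOXL2 gave overlapping groups, at -0.09, 0.03 and 0.05. In 1 of them the control arrays stood at 7.35 and 6.69, on either side of the miR-490 arrays at 6.95 and 7.15.

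**Figure D4:**
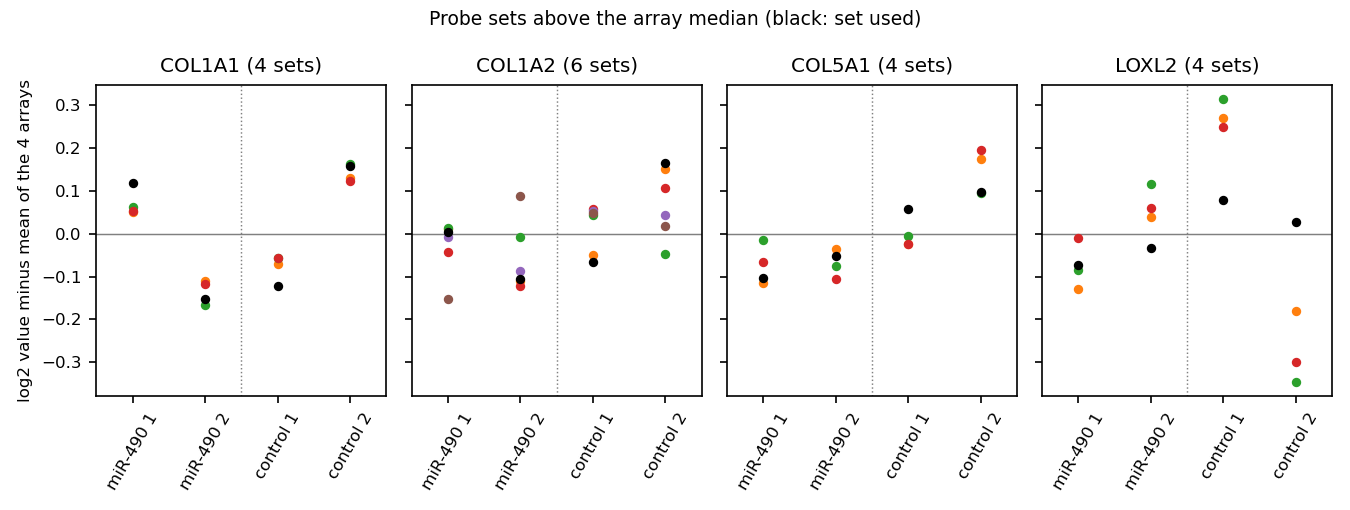
Log2 value minus the mean over the 4 arrays (vertical axis) on each array (horizontal axis) for every probe set above the array median of COL1A1, COL1A2, COL5A1 and LOXL2, each set in its own colour and the set used in black. The 4 sets of COL1A1 are low in miR-490 replicate 2 and control replicate 1, those of COL5A1 are lower in both miR-490 arrays, and 3 sets of LOXL2 differ widely between the control arrays.

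Over all single-gene probe sets of the members, 60 of 136 were above the median. Of these 60, 43 were lower in miR-490 cells, 16 higher and 1 without difference, where 50.2% of the 22736 probe sets above the median were lower. The groups did not overlap in 15 of the 60, all lower in miR-490 cells, against 17.8% of those 22736 lower without overlap. The share of the 22736 that were higher without overlap was not counted here. COL5A1 alone gave 4 of the 15. Sets of the same gene measure the same RNA on the same arrays, so these counts are not counts of separate genes. For 10 members, probe sets lay on both sides of the median, so that the call of a gene as above it came from part of its sets. The sets used for 11 members have names ending in _s_at or _x_at, the platform's mark for probes that can match further transcripts.

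Genes that make, move and organise collagen were described from lists chosen with earlier results of these data known. Unless stated, the genes named are up to 4 per list above the median with the smallest unadjusted limma p. Their fold changes, and groups that do not overlap, are therefore not typical of the list. None of their members passed the adjusted test, and the counts below an unadjusted p of 0.05 are from limma. Over all genes, 47.3% were lower in miR-490 cells, and 2.88% were lower and 3.3% higher at that p. Of 18 genes of procollagen modification and folding measured, 17 were above the median, 12 were lower and 6 higher in miR-490 cells, and 0 had an unadjusted p under 0.05. Among them P4HA1 and P4HA2, catalytic subunits of prolyl 4-hydroxylase, had log2 fold changes of -0.125 and -0.07, and the folding isomerases FKBP10 and FKBP14 -0.095 and 0.055. All 10 genes of procollagen export were above the median, 8 lower and 2 higher, again with 0 below that p. Those named by that rule were SEC23A of the COPII coat at -0.14, the ubiquitin ligase adaptor KLHL12 at -0.12, and the cargo receptors MIA2 and MIA3 at -0.13 and 0.08. The list medians were -0.0175 for modification and folding and -0.0475 for export, against 0.005 over all genes.

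Of 10 genes of propeptide removal 4 were above the median, and 5 were lower and 5 higher. PCOLCE, which enhances cleavage of the procollagen C-propeptide by BMP1, gave 8.47 and 8.44 in the miR-490 arrays, against 8.61 and 8.61 in the control arrays. Both miR-490 arrays were below both control arrays (log2 fold change -0.155; limma unadjusted p = 0.0393, adjusted p = 0.786). Of the 10 genes 2 were lower at an unadjusted p under 0.05 and 0 higher, against 2.88% and 3.3% of all genes. The other was ADAMTS3, a procollagen N-propeptidase named after its values were seen, with a log2 fold change of -0.21 (limma unadjusted p = 0.0436, adjusted p = 0.786) and a level below the median, at 3.175.

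The list of proteins that organise fibrils held the lowest fold changes of the 5 pathway lists. Of its 16 measured genes 13 were lower and 3 higher in miR-490 cells, where 47.3% of all genes were lower, at a median log2 fold change of -0.07. At an unadjusted p under 0.05, 4 were lower and 0 higher, against 2.88% and 3.3% of all genes. LUM (lumican), a small proteoglycan that binds fibrils, gave 7.80 and 7.87 in the miR-490 arrays, against 8.18 and 8.07 in the control arrays. DCN (decorin), of the same family, gave 5.90 and 5.89 in the miR-490 arrays, against 6.20 and 6.12 in the control arrays. THBS2, a matricellular thrombospondin, gave 7.21 and 7.25 in the miR-490 arrays, against 7.56 and 7.44 in the control arrays. In each of these 3 both miR-490 arrays lay below both control arrays, and so they did in POSTN, a matricellular protein that binds collagen and aids its cross-linking. The log2 fold changes were -0.29 for LUM, -0.265 for DCN, -0.27 for THBS2 and -0.16 for POSTN, with limma unadjusted p-values of 0.0106, 0.00862, 0.0131 and 0.0353 and an adjusted p of 0.786 for each. LUM and DCN are also in the list of fibroblast and stromal markers, of which 9 of 11 were above the median, TAGLN and THY1 being below it. In that list 5 genes were lower and 6 higher in miR-490 cells, at a median log2 fold change of 0.01. S100A4, another of its genes, gave 7.32 and 7.40 in the miR-490 arrays, against 7.15 and 7.21 in the control arrays, without overlap (log2 fold change 0.18; limma unadjusted p = 0.0396, adjusted p = 0.786). The summed level of that list was 11.57 and 11.61 in the miR-490 arrays, against 11.64 and 11.60 in the control arrays, which overlap. The part of stromal markers in these differences was not tested.

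**Figure D5:**
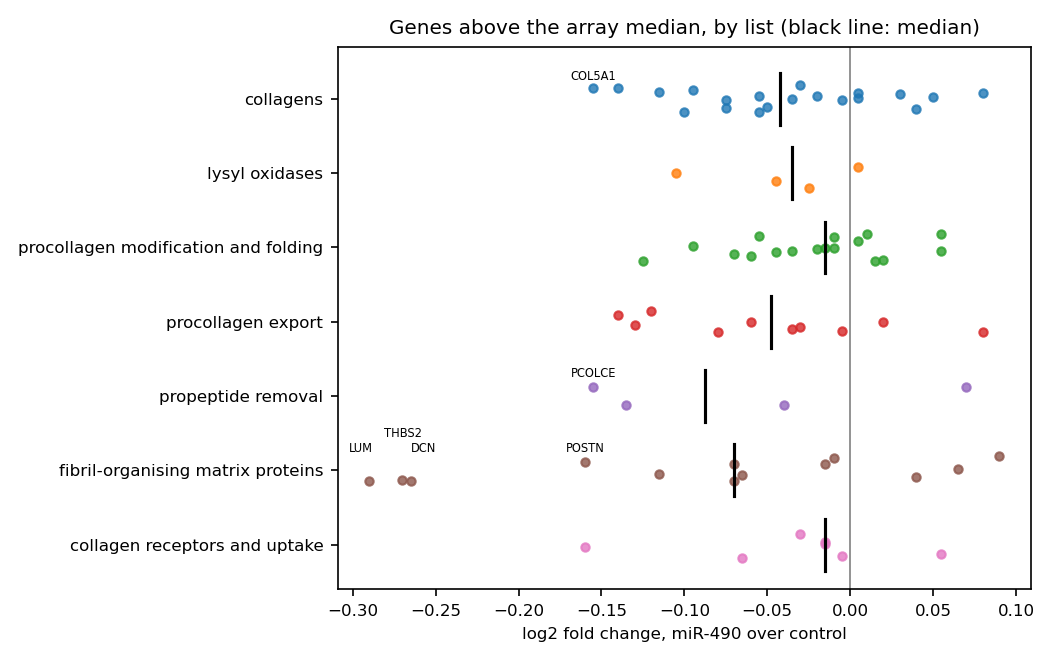
Log2 fold change of miR-490 over control (horizontal axis) for the genes above the array median in each list, with a black line at the median of the list and names for genes at an unadjusted limma p under 0.05. LUM, DCN and THBS2 lie apart from the other genes of the fibril-organising list, and COL5A1 is the collagen named.

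Collagen receptors and uptake proteins lay on both sides of the median. Of 11 measured 7 were above it, against 56.3% of all genes, 9 were lower and 2 higher in miR-490 cells, and 0 had an unadjusted limma p under 0.05. CD44, a hyaluronan receptor that also binds collagen, had a log2 fold change of -0.16, the integrin chains ITGB1, ITGA10 and ITGA2 had -0.03, -0.065 and 0.055, and the list's median was -0.015.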

How the data were processed

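Log2 expression per probe set was deposited by the authors, made with RMA per the submitters' processing notes; the version and options of RMA were not given in the sources used here. RMA equalises the arrays and so hides any shift shared by most transcripts. The platform annotation gives a single symbol for 44988 of the 49293 probe sets, more than 1 for 1832 and none for 2473; RefSeq matched 44961. No probe set with several symbols names a member. The miR-490 and control groups came from the sample titles and were compared over 18132 genes with limma 3.58.1 in R 4.3.3 (lmFit, eBayes without trend; residual degrees of freedom 2, prior 2.46), by a two-sided test with Benjamini-Hochberg adjustment over all genes at 0.05. Tables and figures used Python 3.11.15, pandas 2.3.3 and matplotlib 3.10.9. The fit was tested on simulated data. The number of arrays limits the precision, and batches were not analysed here.

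The members and lists were chosen with earlier results of these data known. Values per array are given for the lysyl oxidases, for collagens 4 log2 units above the median, and for COL1A1, COL1A2, COL4A1, COL4A2, COL5A1, COL5A2, COL6A1, COL6A2 and COL6A3. They are also given for the 6 higher and 6 lower members above the median with the smallest unadjusted p. Per list, the values per array are from up to 4 genes above the median with the smallest unadjusted limma p. COL5A3, COL4A5, COL13A1, COL18A1, COL20A1, COL9A1 and the dim members were named after their values were seen. COL17A1, COLGALT2 and TNXB were not analysed here. Alternatives were other normalisation, centring, variance priors, probe set rules, a filter on dim genes, an ordinary test, the replicate number as a block and each array left out. Sequences are RefSeq's.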

Additional observations from a re-analysis of the deposited data

How the results depend on the processing

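Under each alternative 0 of 48 members and 0 genes passed the adjusted threshold, with between 740 and 1284 genes (among the fits of all 18132) and 0 to 3 members at an unadjusted p under 0.05. The replicate numbers did not pair the arrays: deviations of same-numbered arrays correlated at -0.0265. With the replicate block 0 genes and 0 members passed, at 892 genes and 1 member with an unadjusted p under 0.05. The count of members higher in miR-490 cells, 20 in all, was 7 when only the 24 members above the median were fitted, which drops the other members, and ranged between 13 and 24 when each array was left out. The members' median log2 fold change, -0.0325, ranged between -0.0525 and 0.0 with each array left out. Of the 24 members above the median, 17 were lower; this was 10 with the probe set of largest spread, for which the cause was not tested, and between 12 and 20 with each array left out. That count and its alternatives were added after the data were seen. The number of members above the median, 24, was 19 with probe sets averaged per gene and 21 at 1 log2 unit above the median. Of 284 alternative values of the 22 named members, 28 had the other sign, in 16 members. The variance priors, the ordinary test, the replicate block and the filter on dim genes leave a fold change as it was. Their values among the 284 therefore could not change sign. Counted apart from these, 16 of the 54 other probe sets of the named members had another sign. Arrays give no count depth; below the median, signal near background limits what a fold change shows.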

Other observations

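The promoters of the members were searched for short motifs on both strands, in the window of 250 bases before to 50 after the start in RefSeq. A window was matched for 35 of the 48 members. The letters TATAAA were in 4 of the 35 (11.4%), against 12.0% of all 27305 genes with a window, GGGCGG in 20 (57.1%), against 44.6%, and CCAAT in 10 (28.6%), against 35.7%. Among the 18 members above the array median with a window, TATAAA was in 3 (16.7%), GGGCGG in 12 (66.7%) and CCAAT in 5 (27.8%), against 5.63%, 70.8% and 36.9% of the 8522 tested genes above the median. The 27305 include genes that were not tested, so their shares are not those of the tested genes. Among the 17 members not above the median with a window, TATAAA was in 1 (5.88%), GGGCGG in 8 (47.1%) and CCAAT in 5 (29.4%). The shares of the 5903 tested genes not above it were 14.3%, 43.8% and 35.7%. These are descriptions of letters and show no binding.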
